A study of Mus musculus with 2 samples.

Results

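Fos, Fosb, Jun, Junb, Atf3, Egr1 and Ier2 are nuclear genes that cells switch on within minutes of a stimulus or an injury. Jund, a relative of Jun and Junb, is transcribed in resting cells too. These 8 genes were followed through sorted skin keratinocytes of mice that carry an allele able to switch on hedgehog signalling. The 8 genes were chosen by name, as genes of the AP-1 transcription factor and immediate early genes known to respond when tissue is taken apart, and they are 8 of the 32286 features measured. All 8 had counts in both libraries, in the cells kept, which had 1500 or more genes detected and no more than 10% mitochondrial counts.

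AP-1 is a pair of leucine-zipper proteins that binds DNA: a Jun protein (Jun, Junb or Jund) with another Jun, a Fos protein (Fos or Fosb) or a relative such as Atf3. Growth factor receptors, mitogen-activated kinases and stress kinases induce most of these genes through factors already present in the cell, so their RNA rises and decays quickly. Jund is the exception among the Jun genes and is transcribed in resting cells. In epidermis, AP-1 proteins help to control keratinocyte growth and the genes of terminal differentiation. Release of cells with enzymes and sorting also induce the immediate early genes, so their RNA in a single-cell library can be made in the animal or on the bench.

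Cells came from the skin epidermis of mice of 2 genotypes, with 1 library each. The Survivin GOF mice carried Involucrin-CREER, Rosa-SmoM2 and Krt14rtTA together with the Survivin GOF allele, and the SmoM2 control mice carried Involucrin-CREER and Rosa-SmoM2. Both thus have SmoM2, the always active mutant of the hedgehog transducer Smoothened, behind a tamoxifen-dependent Cre driven by the involucrin promoter, and the control cells are not normal skin. The GOF mice add a tetracycline-dependent transactivator driven by the keratin 14 promoter to the gain-of-function allele. The protein, encoded by Birc5, blocks apoptosis and works in chromosome segregation. YFP-positive cells without CD34 and with high integrin α6 had been sorted. The number and age of the mice and the time after induction are not given here. The labels name both V2 and V3 chemistry in a protocol common to both libraries, so which of them each library used is unclear. With 1 library per genotype no test was possible: genotype, library, chemistry, animals and handling cannot be told apart, and every interval below is a 95% interval for counting error only.

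After filters and removal of likely doublets, 6494 GOF and 10294 control cells remained, with a median of 12324.5 and 7648 unique molecular identifiers (UMIs) per cell. Of the kept barcodes 20 occurred in both libraries. Birc5 stood at 793 counts per 1000000 UMIs (CPM) in GOF and 55.1 CPM in control keratinocytes, higher in the library labelled as its gain of function, and the keratinocyte genes Krt14 and Krt5 were at 15309 and 7575 CPM in GOF cells and at 12894 and 6522 CPM in control cells. The cells fell into 27 clusters made without the 8 genes and without the other immediate early, AP-1, kinase and chaperone genes listed below, so that these did not define the states. Keratinocyte clusters held 6319 GOF and 10123 control cells, and the others were melanocyte-like and immune-like. Each cluster is called by leading genes and, where its markers gave one, by a cell type. Clusters given no cell type were counted as keratinocytes. The Slc39a1 Notch2 cluster, with 17.1% of the control keratinocytes, is one of these, and of the listed markers only Col1a1 and Col1a2 were raised in it. The genotypes also differed in sex: by X-inactivation and Y-linked transcripts, 3608 GOF keratinocytes were called female and 1805 male, against 30 and 7352 of the control keratinocytes.

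RefSeq promoter windows on GRCm38.p6 were at hand for 6 of the 8 genes: Fos, Fosb, Jun, Junb, Jund and Atf3. The 250 bases before the start were searched on both strands for TGACG, the core of the site that CREB and ATF proteins bind. It was in 4 of the 6, those of Fos, Fosb, Junb and Atf3, and in 17.8% of 32851 promoter windows of that length. The windows of Fos (chr12:85473640-85473889, plus strand), Fosb (chr7:19310046-19310295, minus strand) and Junb (chr8:84978749-84978998, minus strand) follow, 5′ to 3′, as the Fos and Jun genes whose windows held this core. Capitals mark TGACG and, in Fos, also the TATA box TATAAA.
Fos: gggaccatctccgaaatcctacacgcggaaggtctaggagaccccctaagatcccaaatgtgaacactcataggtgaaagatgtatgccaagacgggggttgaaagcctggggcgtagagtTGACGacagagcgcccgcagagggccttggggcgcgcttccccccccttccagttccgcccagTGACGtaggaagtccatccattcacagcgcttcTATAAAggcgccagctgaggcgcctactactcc
Fosb: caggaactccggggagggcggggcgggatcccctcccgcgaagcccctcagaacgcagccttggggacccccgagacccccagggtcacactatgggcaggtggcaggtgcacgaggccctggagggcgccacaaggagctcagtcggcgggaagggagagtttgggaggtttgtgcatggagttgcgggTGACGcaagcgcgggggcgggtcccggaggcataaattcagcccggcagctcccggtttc
Junb: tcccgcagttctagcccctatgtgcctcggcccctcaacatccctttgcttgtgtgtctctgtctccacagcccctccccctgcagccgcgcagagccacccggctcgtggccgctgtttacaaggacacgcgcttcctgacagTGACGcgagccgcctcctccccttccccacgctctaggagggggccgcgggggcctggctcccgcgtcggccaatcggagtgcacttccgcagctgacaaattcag

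In Fos, TGACG began 129 and 66 bases before the start and TATAAA 33 bases before it. TGACG began 60 bases before the start in Fosb and 106 in Junb. TATAAA was in the window of no other of the 6 genes and in 12.4% of all windows. None of the 6 windows held the full palindrome TGACGTCA, which contains TGACG (1.55% of all windows), the AP-1 site TGANTCA (6.75%), which contains no TGACG, or a CArG box, the site of serum response factor (1.47%). These matches describe letters in the windows and say nothing of binding.

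Of the 8 genes, 7 have a compact build and Atf3 is the exception in length. In the GENCODE vM21 annotation of the mm10 build, all 8 are protein-coding. Jun (chr4:95049034-95052222), Junb (chr8:84974484-84978718), Jund (chr8:70698949-70700616) and Ier2 (chr8:84661331-84662852) have 1 exon in their consensus coding transcripts, a build found in 2.44% of the 12916 measured coding genes with such a transcript. Egr1 (chr18:34859823-34864984) has 3 exons, Fos (chr12:85473890-85477273) and Atf3 (chr1:191170296-191218039) have 4, and Fosb (chr7:19302696-19310051) has 5, against a median of 9. Atf3 spans 47744 bases and the other 7 genes between 1522 and 7356 bases, against a median of 23945.5.

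Over all keratinocytes the libraries held the 8 genes at close levels. Their summed UMIs came to 1067 CPM (1060 to 1073) in GOF and 983 CPM (976 to 989) in control keratinocytes, a ratio of 1.09 (1.08 to 1.10). None of the 8 was 1.5-fold higher or lower. Of the 14581 genes with at least 50 pooled UMIs, 6.81% were at least 1.5-fold higher and 5.4% lower, and among the 6982 genes as abundant as the 8, 1.69% were higher and 1.7% lower. The median log2 ratio was 0.04 for the 8 and 0.08 for all genes, with 62.5% of the 8 and 62.2% of all genes above 0.

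Among the Fos genes, Fos, whose protein pairs with Jun proteins, stood at 48.9 CPM in GOF and 58.6 CPM in control keratinocytes, a ratio of 0.84 (0.80 to 0.87). Fosb, its closest relative here, stood at 52.8 CPM in GOF and 45.7 CPM in control keratinocytes, a ratio of 1.16 (1.11 to 1.20). The closely related pair thus lay on opposite sides of equality, each by less than 1.5-fold.

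Among the Jun genes, Jun, the founding AP-1 partner, was at 186 CPM in GOF and 177 CPM in control keratinocytes. Junb, which can restrain Jun, was at 174 CPM in both libraries, with a log2 ratio of 0.00 (-0.03 to 0.03). Jund, the constitutive member, was the most abundant of the 8 at 393 CPM (389 to 397) in GOF and 317 CPM (313 to 320) in control keratinocytes, a ratio of 1.24 (1.22 to 1.26). The sign of the small Jun difference depended on scaling: its log2 ratio was 0.07, but -0.01 with scaling by the median ratio over genes and -0.12 when the clusters were weighted equally. The ratio of Jund stayed above 1 under all 11 alternatives run for it. The 3′ protocol does not scale UMIs by gene length, so the order between genes is one of counted molecules.

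Atf3, a stress-induced bZIP factor that often represses its targets, was the scarcest of the 8 and had the ratio farthest from 1 before thinning. It stood at 11.1 CPM (10.5 to 11.8) in GOF and 16.3 CPM (15.6 to 17.2) in control keratinocytes, 1.47-fold lower in GOF. This gap moved both ways with the cells and scaling used. Its log2 ratio of -0.56 was -0.59 to -0.64, past 1.5-fold, with scaling by the median ratio, without the clusters of 1 library and without the 1% of cells with most UMIs of the 8 genes. It was -0.43 with at most 5% mitochondrial UMIs, -0.28 with cells thinned to 3000 UMIs, -0.13 without female-called GOF cells and -0.05 in male-called cells. After thinning, Egr1 at 0.40 and Jund at 0.37 lay farther from 0. Egr1, a zinc-finger factor induced by growth signals, stood at 93.9 CPM (92.0 to 95.8) in GOF and 72.4 CPM (70.7 to 74.1) in control keratinocytes, a ratio of 1.30 (1.26 to 1.34). Ier2, an immediate early nuclear protein, stood at 106 CPM in GOF and 121 CPM in control keratinocytes, a ratio of 0.88 (0.85 to 0.90). Without thinning, Egr1 and Atf3, both stress-responsive, lay at the opposite ends of the 8 ratios.

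**Figure D1:**
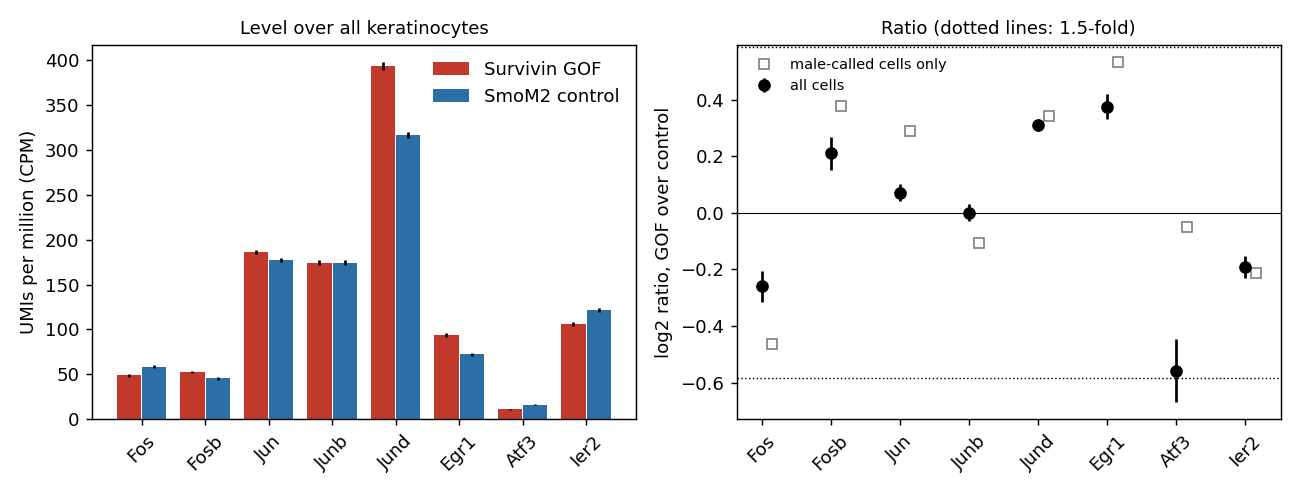
Levels of the 8 genes over all keratinocytes (left, CPM from 0, red Survivin GOF, blue SmoM2 control) and the log2 ratio GOF over control (right), with bars for 95% counting intervals and dotted lines at 1.5-fold. Filled points use all cells and open squares male-called cells alone: Egr1 has the highest ratio in both, and Atf3 is near 0 in male-called cells.

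Jund made up more of the AP-1 transcripts in the GOF library. Jund gave 36.9% of the UMIs of the 8 genes in GOF and 32.2% in control keratinocytes, and 52.2% and 47.4% of the UMIs of the 3 Jun genes. UMIs of the Jun genes outnumbered those of Fos and Fosb 7.41 to 1 in GOF and 6.41 to 1 in control keratinocytes. In the Col14a1 Basp1 basaloid-like cluster Junb passed Jund: it gave 38.9% of the Jun gene UMIs in GOF and 35.3% in control cells, beside 37.7% and 32.5% from Jund. Junb also passed Jund in the control cells of the S100a9 Sprr2d cluster, with 51.4% against 30.1%, and it gave 35.9% in GOF and 34.3% in control cycling basaloid-like cells. Basaloid-like clusters were those rich in genes of the hedgehog-high list, such as Gli1, Ptch1 and Hhip. In the Krt84 Aox4 tail scale-like cluster, Jun gave only 11.04% of Jun gene UMIs in GOF and 17.6% in control cells.

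Because GOF cells were deeper, shares of cells with a UMI were read after every cell was thinned to 3000 UMIs, which left out 10 GOF and 91 control keratinocytes. Jund then had a UMI in 65.3% (64.1 to 66.4) of GOF and 57.5% (56.5 to 58.5) of control keratinocytes, and Egr1 in 21.02% (20.02 to 22.04) and 16.6% (15.9 to 17.4), intervals being exact binomial. Fos was detected in 11.4% of GOF and 12.7% of control keratinocytes, and Atf3 in 2.77% and 3.62%. Without thinning these shares were 94.7% and 84.6% for Jund, 52.7% and 35.4% for Egr1, 34.9% and 29.9% for Fos, and 8.02% and 9.06% for Atf3. For Fos the unthinned share ran against both the thinned share and the CPM. No cell type here is known to lack these genes: in melanocyte-like cells, at a median of 11795 UMIs in GOF and 9336 in control, thinned shares were 62.4% and 61.1% for Jund and 28.8% and 30.1% for Fos.

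The genes differed in how evenly cells carried them. In unthinned counts, the 1% of keratinocytes with most Atf3 held 46.9% of its UMIs in GOF and 41.7% in control, and the 1% with most Fos held 20.8% and 18.8%. The same share for Jund was 5.99% in GOF and 6.84% in control. Only 507 GOF and 917 control keratinocytes had any Atf3 UMI, and the highest single cells held 23 and 34 of the 1089 and 1620 UMIs. Of these 3 genes, Atf3 was the most concentrated in few cells and Jund the most evenly spread. At 3000 UMIs a keratinocyte carried a median of 3 UMIs of the 8 genes in GOF and 2 in control, and 8.32% and 10.8% carried none.

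Within the GOF library, male-called and female-called cells held several of the genes at unequal levels. Atf3 stood at 15.8 CPM in GOF male-called cells and 16.4 CPM in control male-called cells, and at 7.95 CPM in GOF female-called cells. Jun was at 218 CPM in GOF male-called cells and 179 CPM in control male-called cells, and at 162 CPM in GOF female-called cells. Egr1 was at 107 CPM in GOF male-called, 73.9 CPM in control male-called and 82.1 CPM in GOF female-called cells. In male-called cells alone the log2 ratio was -0.05 for Atf3, against -0.56 in all cells, and 0.29 for Jun, 0.53 for Egr1, 0.34 for Jund and -0.46 for Fos. The GOF male-called cells thus held Atf3 near the control level, and the GOF female-called cells below it. The control library had too few female-called cells for the same comparison, and the part of sex in these values was not tested.

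Levels of the 8 genes differed more between keratinocyte states than between libraries. Their summed level ran 6.39-fold from the lowest to the highest cluster in GOF and 5.39-fold in control, over 20 and 22 clusters with at least 50 cells, and 3.27-fold and 4.31-fold with clusters made at resolution 0.5. The highest was the bulge-like cluster led by Fgf18 and Sfrp1, at 2024 CPM (217 cells) in GOF and 1961 CPM (129 cells) in control, in which 13 of 14 bulge stem cell markers, Cd34 included, were at least 2-fold higher than in the other clusters although the sort was for cells without CD34 protein. The Aspn Gata6 Krt79 upper follicle-like cluster followed with 1430 CPM in GOF and 1528 CPM in control. The lowest was the Fa2h Elovl3 sebaceous-like cluster, at 317 CPM (100 cells) in GOF and 364 CPM (256 cells) in control. Between neighbours in the order, counting intervals overlapped for 12 of 19 pairs in GOF and 17 of 21 in control, so the middle of the order is not resolved. Between the libraries, the profile of the summed level had a Pearson r of 0.93 and a Spearman's rho of 0.75. It was taken over the 18 keratinocyte clusters with at least 50 cells in each library.

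**Figure D2:**
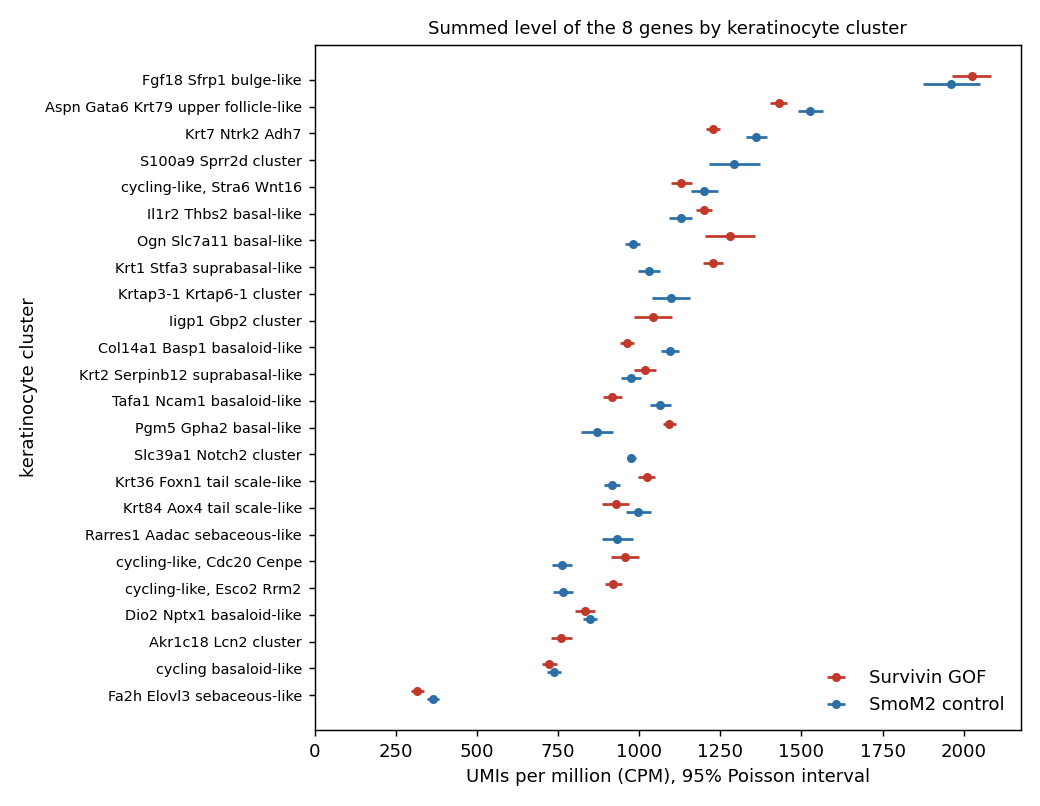
Summed level of the 8 genes (CPM, horizontal axis) in each keratinocyte cluster with at least 50 cells of a library, red for Survivin GOF and blue for SmoM2 control, with 95% Poisson intervals. The bulge-like cluster lies near 2000 CPM in both libraries and the Fa2h Elovl3 sebaceous-like cluster at 317 CPM in GOF and 364 CPM in control.

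In the bulge-like cluster the genes stood above the rest unevenly. Against all other keratinocytes of the same library, 5 of the 8 were at least 1.5-fold higher in GOF, where 25% of 13507 genes were, and 5 of 8 in control, where 22.7% of 13481 genes were. Fos was 3.47-fold higher (3.10 to 3.87) in GOF and 2.81-fold (2.39 to 3.29) in control. Jun was 2.37-fold and 2.79-fold higher, Egr1 2.32-fold and 2.08-fold, and Jund 1.94-fold and 2.10-fold. Junb was 1.31-fold and 1.30-fold higher, and Ier2 1.51-fold and 1.23-fold. Atf3 did not share the pattern, at 12.7 CPM in GOF and 9.98 CPM in control bulge-like cells, against 11.1 and 16.4 CPM in the other keratinocytes. At 1.64-fold it was the 1 gene of the 8 past the limit on the low side in control, with an interval of the ratio from 0.29 to 1.12 and beside 19.6% of all genes, and in GOF there was none, beside 16.8%. Fosb differed between the libraries, 1.4999-fold higher in GOF, just under the limit, and 2.74-fold in control, at 78.4 CPM in GOF and 123 CPM in control bulge-like cells.

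The Fa2h Elovl3 sebaceous-like cluster was the lowest for most of the 8 genes, and many other genes were low there too. All 8 were at least 1.5-fold lower there than in the other keratinocytes in GOF, and 7 of 8 in control, beside 47.2% and 51% of all genes. Fos stood at 8.19 CPM in GOF and 20.3 CPM in control cells of the cluster, against 50.2 and 60.4 CPM in the other keratinocytes. Ier2 held up best, at 54.9 CPM in GOF and 86.3 CPM in control cells of the cluster, and in control it missed the limit at 1.43-fold lower. The Fa2h Elovl3 cells were also among the deepest and the bulge-like cells among the shallowest, with means of 29316 and 9820 UMIs per cell in GOF and 17521 and 7766 in control. Counted per cell, UMIs of the 8 genes came to 9.29 in GOF and 6.38 in control Fa2h Elovl3 cells and to 19.9 and 15.2 in bulge-like cells, so the bulge-like cells stood higher without division by depth too. Deep clusters passed them on this scale, with 29.5 per cell in the Stra6 Wnt16 cycling-like cluster in GOF and 21.3 in the Krtap3-1 Krtap6-1 cluster in control. The low level was not common to all sebaceous-like cells. The other sebaceous-like cluster, led by Rarres1 and Aadac, had 12 of 17 sebaceous markers raised and held 196 control cells and 1 GOF cell. In its control cells the 8 genes summed to 933 CPM, with Fos at 61.1 CPM and a mean of 7939 UMIs per cell. The Akr1c18 Lcn2 cluster, with 10 of 17 sebaceous markers raised, held the 8 genes at 760 CPM in its 128 GOF cells. The median over the 20 GOF clusters was 1021 CPM.

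Several genes had maxima of their own outside the bulge-like cluster. Junb was highest at 263 CPM in the Iigp1 Gbp2 cluster of the GOF library and at 396 CPM in the S100a9 Sprr2d cluster of the control library, which hold under 50 cells in the other library. Fos was also high in control cells of that S100a9 Sprr2d cluster, at 148 CPM. Egr1 reached 204 CPM in control upper follicle-like cells, beside 169 CPM in GOF. Egr2, a related immediate early gene, was among the 10 leading genes of this cluster and of the cycling-like cluster led by Stra6 and Wnt16. Fosb was highest in GOF in the Tafa1 Ncam1 basaloid-like cluster, at 81.1 CPM, beside 81.6 CPM in control. Ier2 varied least, 2.89-fold over clusters in GOF and 2.48-fold in control, and Atf3 most, 26.3-fold and 29.0-fold. Outside the keratinocytes, immune-like cells led by Cd207 carried 1870 CPM of the 8 genes in GOF and 2382 CPM in control, and melanocyte-like cells 1214 and 1117 CPM.

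Within clusters, the difference between libraries varied from state to state. Over the 18 clusters shared by both libraries, 141 pairs of gene and cluster had at least 50 UMIs: 6 were at least 1.5-fold higher and 17 lower in GOF, against 6.32% and 5.13% of 165159 pairs over all genes. Of the 17 lower pairs 9 were Atf3. The median of the 8 log2 ratios ran from -0.49 to 0.35 and was above 0 in 9 of the 18 clusters. Basal-like clusters led by Ogn and Slc7a11 (1279 CPM in GOF, 980 in control) and by Pgm5 and Gpha2 (1093 in GOF, 870 in control) and the Krt1 Stfa3 suprabasal-like cluster (1227 in GOF, 1031 in control) had more of the 8 genes in GOF. The libraries split the basal state between the first 2 of these, with 89 GOF and 1012 control cells in the Ogn Slc7a11 cluster and 831 GOF and 147 control cells in the Pgm5 Gpha2 cluster. Birc5, the gene of the GOF allele, was among the leading genes of the Pgm5 Gpha2 cluster. The Krt7 Ntrk2 Adh7 cluster (1227 in GOF, 1361 in control), the Col14a1 Basp1 basaloid-like cluster (962 in GOF, 1094 in control) and the Tafa1 Ncam1 basaloid-like cluster (917 in GOF, 1066 in control) had less. No test of this difference between states was possible.

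**Figure D3:**
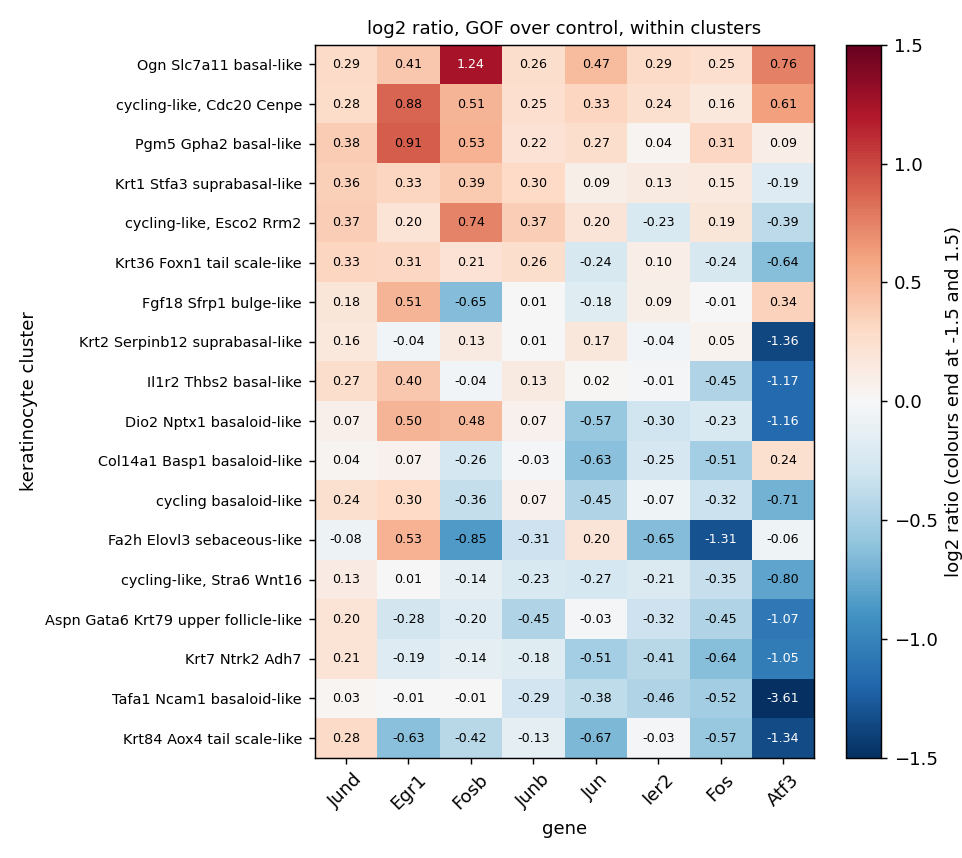
Log2 ratio, Survivin GOF over SmoM2 control, of each gene (columns) in each of the 18 keratinocyte clusters with at least 50 cells per library (lines), red where GOF is higher and blue where it is lower. Jund is above 0 in every cluster but the sebaceous-like one, and Atf3 holds most of the deep blue cells.

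Jund was the steadiest of the 8. Its ratio was above 1 in 17 of 18 clusters, with the whole interval above 1 in 14, and exceeded the median gene of the same cluster in 15. The log2 ratio of that median gene ran from -0.02 to 0.15 over the clusters. The share of all genes above 1 in as many clusters, or with the whole interval above 1, was not computed. Intervals are narrow for a gene as abundant as Jund. The Jund ratio was lowest at 0.95 in the sebaceous-like cluster, at 94.5 CPM in GOF and 99.9 CPM in control. It was highest at 1.30 in the Pgm5 Gpha2 basal-like cluster, at 432 CPM in GOF and 332 CPM in control. Its profile over the 18 clusters had an r of 0.98 between libraries, the highest of the 8, and Fosb had the lowest at 0.65. In basaloid-like clusters led by Tafa1, Col14a1 and Dio2, the Jund ratio was 1.02 to 1.05 with intervals that included 1.

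Egr1 was above equality in 13 of 18 clusters. Over all keratinocytes pooled, 62.2% of all genes were above equality, but the share above it in as many clusters was not computed. The count of clusters alone thus cannot set Egr1 apart. In the Pgm5 Gpha2 basal-like cluster it stood at 83.6 CPM in GOF and 44.5 CPM in control, 1.88-fold higher (1.45 to 2.48), on 959 and 61 UMIs. In the Krt84 Aox4 tail scale-like cluster it stood at 47.7 CPM in GOF and 74.0 CPM in control, 1.55-fold lower. Fosb ranged as widely: it was 2.36-fold higher (1.76 to 3.13) in the Ogn Slc7a11 basal-like cluster, at 75.6 CPM in GOF and 32.0 CPM in control. The GOF value rests on 63 UMIs. Jun was 1.55-fold lower in the Col14a1 Basp1 basaloid-like cluster, at 147 CPM in GOF and 227 CPM in control, while over all keratinocytes it was close to equal.

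Atf3 carried most of the lower ratios. In the Il1r2 Thbs2 basal-like cluster it stood at 23 CPM (19.7 to 26.7) in GOF and 51.7 CPM (44.4 to 59.8) in control, its highest level in control. In the upper follicle-like cluster it stood at 14.998 CPM in GOF and 31.4 CPM in control, and in the Krt7 Ntrk2 Adh7 cluster at 13.8 CPM in GOF and 28.5 CPM in control. In these 3 clusters the library intervals did not overlap. The share of all genes with such intervals was not computed, and counting intervals leave out the spread between cells. In the Il1r2 Thbs2 cluster 1 cell held 23 of the 175 Atf3 UMIs in GOF, and 1 held 34 of the 180 in control. The opposite order of the libraries held in the Ogn Slc7a11 basal-like cluster, at 36.0 CPM in GOF and 21.3 CPM in control, with 30 UMIs in GOF. In the Tafa1 Ncam1 basaloid-like cluster it stood at 1.37 CPM in GOF and 16.8 CPM in control, but on 6 and 70 UMIs, and 25 of the 70 came from 1 cell.

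**Figure D4:**
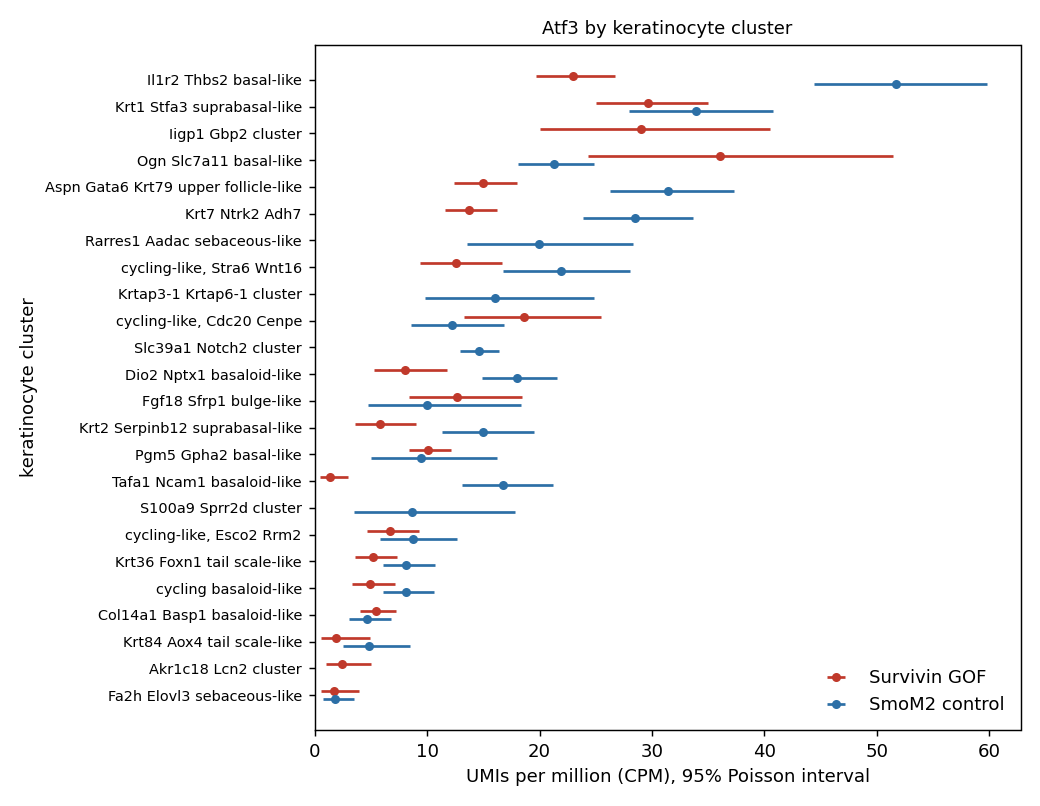
Atf3 level (CPM, horizontal axis) in each keratinocyte cluster with at least 50 cells of a library, red for Survivin GOF and blue for SmoM2 control, with 95% Poisson intervals. The control library is higher in the Il1r2 Thbs2 basal-like, upper follicle-like and Krt7 Ntrk2 Adh7 clusters, and both libraries are below 6 CPM in the Fa2h Elovl3 sebaceous-like and Krt84 Aox4 tail scale-like clusters.

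The values that bear on handling were read beside the 8 genes. The other immediate early genes, a list of 40 with Klf4, Btg1, Zfp36, Nr4a1 and Dusp1 among them, summed to 2061 CPM in GOF and 2001 CPM in control keratinocytes. Over clusters their sum followed that of the 8 genes, with r of 0.88 over 20 GOF clusters and 0.78 over 22 control clusters and Spearman's rho of 0.80 and 0.57, points that share a library and its depth. The 18 heat shock and chaperone genes, which rise with heat and unfolded protein, summed to 5785 CPM in GOF and 5468 CPM in control. Their sum did not climb with the 8 genes in both libraries, with r of -0.33 in GOF and 0.12 in control and Spearman's rho of -0.51 and 0.17. The median mitochondrial share of a cluster had r of -0.51 in GOF and -0.39 in control, but on ranks the association was not seen, with Spearman's rho of 0.12 and -0.04. Its median UMIs per cell had r of -0.74 in GOF and -0.47 in control, with rho of -0.57 and -0.29. The bulge-like cluster had the most of the other immediate early genes, 3742 CPM in GOF and 3371 CPM in control, with chaperones at 6071 and 5915 CPM. What dissociation added to any of these levels was not tested.

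**Figure D5:**
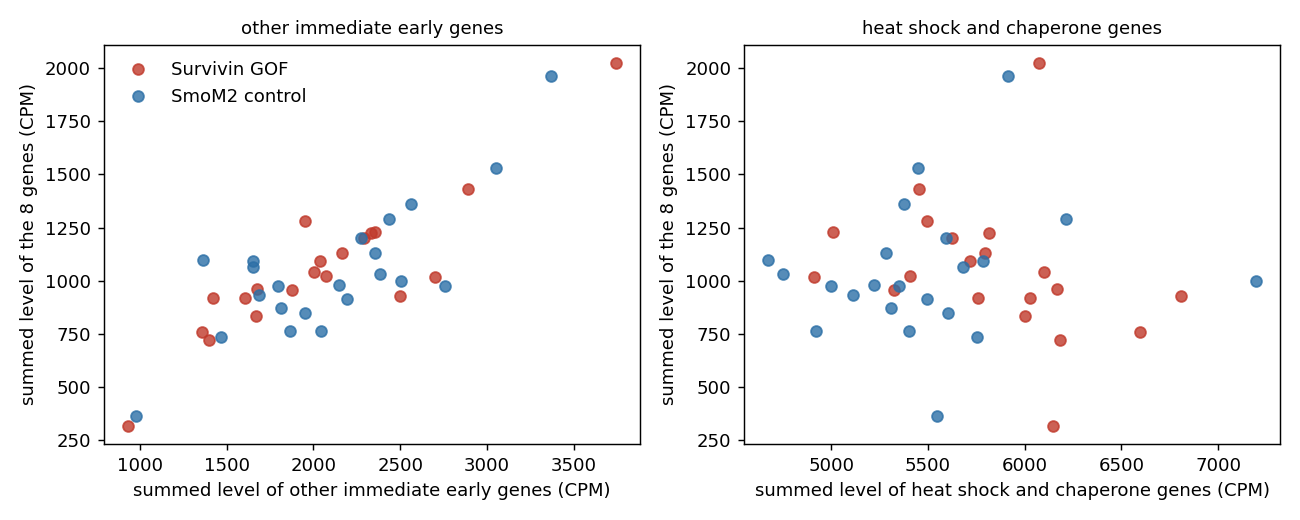
Summed level of the 8 genes (vertical axis, CPM) against the summed level of the other immediate early genes (left) and of heat shock and chaperone genes (right), 1 point per keratinocyte cluster with at least 50 cells, red Survivin GOF, blue SmoM2 control. The points climb together on the left, with r of 0.88 in GOF and 0.78 in control, and not on the right.

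Over single cells the 8 genes went together far less. Between pairs of the 8, over 6309 GOF and 10032 control keratinocytes thinned to 3000 UMIs, Pearson r had a median of 0.11 in each library and reached 0.19 in GOF and 0.24 in control. At about 3 UMIs per cell such values are too weak to read. Over cluster profiles the pairs had a median r of 0.53 in GOF and 0.47 in control, with Fos and Fosb at 0.84 in GOF and Fosb and Egr1 at 0.79 in control.

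Inside the filter the level differed less with the mitochondrial share than it did across the filter's limits. In kept keratinocytes with at most 2.5%, 2.5 to 5%, 5 to 7.5% and 7.5 to 10% mitochondrial UMIs, the 8 genes summed to 1217, 1071, 1042 and 1059 CPM in GOF and to 991, 981, 1009 and 918 CPM in control. Barcodes with at least 1500 genes and over 10% mitochondrial UMIs held 1437 CPM in GOF and 1146 CPM in control, and those failing both limits 1626 and 1349 CPM. Failing the gene limit alone, 513 GOF barcodes held 1308 CPM and 3796 control barcodes 1207 CPM. Their median mitochondrial share was 1.15% in GOF and 6.29% in control, so a higher level was not confined to barcodes rich in mitochondrial UMIs. The left-out barcodes were given no cell type and were not screened for doublets, unlike the kept keratinocytes. In those failing both, Fos was at 106 CPM in GOF and 94.2 CPM in control, Junb at 367 and 283 CPM and Egr1 at 193 and 110 CPM, all above their kept level. Jund, at 311 CPM in GOF and 290 CPM in control, and Atf3, at 8.55 and 13.9 CPM, were below theirs in CPM. Chaperones summed to 3633 CPM in GOF and 4416 CPM in control there, under their level in kept cells. CPM counts mitochondrial UMIs in the total, and their median share there was 20.6% in GOF and 15.7% in control. In kept keratinocytes it was 4.29% and 4.89%, so the CPM of every nuclear gene is lowered in the barcodes failing both limits. Whether Jund, Atf3 and chaperones were lower per nuclear UMI was not computed.

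In the lists of related genes, counts past 1.5-fold stood beside 6.81% of all genes higher and 5.4% lower, and with lists this short counts of 0 or 1 are near that background. Of 19 other AP-1 family bZIP genes measured, 1 was at least 1.5-fold higher in GOF and 0 lower. Jdp2, a repressive partner of Jun proteins, was that gene, at 3.15 CPM in GOF and 0.928 CPM in control, and the abundant Maf and Cebpb stood at 408 and 221 CPM in GOF and 365 and 220 CPM in control. Mafa (8.27 CPM in GOF, 6.05 in control), Atf7 (51.5 in GOF, 39.4 in control) and Fosl1 (1.86 in GOF, 1.504 in control) came next by ratio. None of the 26 kinases and nuclear targets of the ERK and stress pathways passed 1.5-fold. Rps6ka1, Egfr and Map2k4 had ratios of 1.29, 1.29 and 1.24, and Egfr, the receptor upstream of ERK, stood at 67.1 CPM in GOF and 52.2 CPM in control. The abundant Hras and Map2k2 had ratios of 0.97 and 0.99.

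Of 37 other immediate early genes 0 were higher and 1 lower by 1.5-fold, with a median log2 ratio of -0.05. That gene was Nfkbiz, a nuclear regulator of NF-κB targets, at 16.6 CPM in GOF and 29.0 CPM in control. Nr4a1, an orphan nuclear receptor, followed at 4.04 CPM in GOF and 6.01 CPM in control, then Gadd45g at 10.0 CPM in GOF and 14.3 CPM in control, and Plk3 ran the other way at 4.23 and 3.10 CPM. The most abundant by the mean of both libraries were Klf4 (486 CPM in GOF, 470 in control), Zfp36l2 (263 in GOF, 238 in control) and Btg1 (192 in GOF, 229 in control). Of 18 chaperone genes 0 passed in either direction, and Dnaja1 (260 CPM in GOF, 197 in control), Chordc1 (37.5 in GOF, 28.4 in control), Hspa5 (213 in GOF, 166 in control) and Cacybp (153 in GOF, 120 in control) had the largest ratios. Hsp90ab1, Hspa8 and Hspb1, the most abundant, were at 2243, 910 and 383 CPM in GOF and 2109, 858 and 456 CPM in control.

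Feedback inhibitors of ERK, many of them transcribed when ERK is active, included 1 of 14 that was at least 1.5-fold lower and 0 higher. Spry2 stood at 9.35 CPM in GOF and 16.6 CPM in control, Spry1 at 12.5 and 17.1 CPM, Dusp6 at 10.5 and 13.2 CPM, and Spred1 at 52.8 and 42.3 CPM. The abundant Dusp7 and Spred2 were at 49.97 and 33.8 CPM in GOF and 54.6 and 28.9 CPM in control. Of the control UMIs of Spry2, 32.7% lay in the Slc39a1 Notch2 cluster of 3 GOF and 1736 control cells, and with Spry2 among its 10 leading genes. Without the 4 clusters made almost wholly of 1 library, Spry2 was 1.44-fold lower in GOF and no longer past the limit.

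Of 18 measured epidermal genes with textbook AP-1 regulation, 1 was higher and 3 lower by 1.5-fold. Mmp13, a collagenase, stood at 0.204 CPM in GOF and 3.09 CPM in control, and 84.3% of its control UMIs lay in the S100a9 Sprr2d cluster of 17 GOF and 84 control cells. Areg, an EGF receptor ligand, stood at 1.03 CPM in GOF and 3.06 CPM in control, with 45.2% of its control UMIs there. Plaur, the urokinase receptor, stood at 0.377 CPM in GOF and 0.595 CPM in control, with 33.9% of its control UMIs in that cluster. Krt6b, a wound keratin, was the higher one at 72.4 CPM in GOF and 46.0 CPM in control, and without the clusters of 1 library its ratio was 1.29 and not past the limit. The abundant Krt1, Mt2 and Krt6a stood at 1368, 791 and 341 CPM in GOF and 981, 726 and 354 CPM in control. Of 7 ligands of the EGF family 1 was higher, Btc at 0.796 CPM in GOF and 0.444 CPM in control, and 1 was lower, Areg. Tgfa, Egf, Nrg1 and Hbegf stood at 3.81, 1.29, 8.86 and 14.4 CPM in GOF and 5.06, 1.68, 7.33 and 13.1 CPM in control.

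Among 5982 genes of at least 20 CPM, the 8 whose cluster profile was most like that of the immediate early genes were Crot, Plch2, Ier3, Dusp1, Gm53, Sdc4, Arvcf and Filip1l. Likeness was Pearson r with the mean standardised profile of the 8 genes, the lower of the r over 20 GOF and 22 control clusters. It was 0.84 for Crot and 0.80 for Filip1l, the ends of the list. Of these Ier3 and Dusp1, a survival factor and a MAP kinase phosphatase, are immediate early genes themselves. Without the sebaceous-like cluster r was 0.77 in GOF and 0.73 in control for Dusp1 and 0.63 and 0.68 for Crot, so the likeness leaned on that cluster.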

How the data were processed

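The deposited matrices hold whole-number UMI counts per gene and barcode, for 1 library per genotype. Per the file headers, Cell Ranger 6.1.1 wrote them. The submitters' processing notes name R 4.3.0, Seurat 4.2.0 and mm10. Barcodes with at least 1500 genes and at most 10% mitochondrial UMIs were kept: 6922 of 11438 GOF and 10993 of 24844 control barcodes. For control, the labels state 8046 cells, beside 8187 barcodes with at least 2000 genes under the same mitochondrial limit. Scrublet's own threshold marked 0 cells, so cells in the top 6% of its score were removed. Cells were clustered by Leiden at resolution 1 (2000 variable genes, 30 components, 15 neighbours), without any listed gene.

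Counts were summed per library and cluster and divided by total UMIs (CPM). Levels carry exact Poisson intervals, ratios exact conditional ones and shares exact binomial ones, and no p-value was computed. A gene needed 50 pooled UMIs, a cluster 50 cells in a library. The text names all 8 genes and, per list, the 4 largest ratios and the most abundant genes, as fixed with the design. A few genes that this rule names are not reported here. The 8 genes and the lists were chosen with earlier results of these data known. The scripts were tested on simulated data. Python 3.11.15, scanpy 1.11.5, numpy 2.4.6, scipy 1.17.1, igraph 0.11.9 and matplotlib 3.10.9 were used. Alternatives covered filters, doublets, scaling, thinning, sex and clustering.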

Additional observations from a re-analysis of the deposited data

Results flagged for a closer look

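All 8 genes lay on both sides of equality over the keratinocyte clusters, and Fosb, Egr1 and Atf3 passed 1.5-fold in both directions. For Jund no cluster had the whole interval below 1, and for Fos and Ier2 none had it above 1. The share of all genes with such a pattern was not computed, and the intervals cover counting error only. With 1 library per genotype the difference between clusters was not tested. The log2 ratio of GOF over control for Fosb was 1.24 in the Ogn Slc7a11 basal-like cluster and -0.85 in the Fa2h Elovl3 sebaceous-like cluster. For Egr1 it was 0.91 in the Pgm5 Gpha2 basal-like cluster and -0.63 in the Krt84 Aox4 tail scale-like cluster. For Atf3 it was 0.76 in the Ogn Slc7a11 basal-like cluster and -3.61 in the Tafa1 Ncam1 basaloid-like cluster. The last value rests on 6 GOF and 70 control UMIs, 25 of them in 1 control cell.

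A signal also appeared in barcodes left out of the comparisons. Barcodes with under 1500 genes and over 10% mitochondrial UMIs held the 8 genes at 1626 CPM in GOF and 1349 CPM in control, above the kept keratinocytes of both libraries. These barcodes were given no cell type.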

How the results depend on the processing

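The summed ratio of the 8 genes, 1.09, was 1.10 with at most 5% mitochondrial UMIs, 1.10 with doublets kept, 1.03 with scaling by the median ratio over genes, 1.13 after thinning, 1.13 in male-called cells and 1.03 with clusters weighted equally. Their median log2 ratio, 0.04, was 0.054, 0.053, -0.046, 0.10, 0.12 and -0.034 under the same 6 settings and 0.020 without the clusters of 1 library. Without female-called GOF cells, a setting chosen after seeing the data, these values were 1.14 and 0.13. Scaling by the median ratio shifts every log2 ratio by 0.08. The count of genes at least 1.5-fold lower, 0, was 1 (Atf3) with that scaling, without the clusters of 1 library and without the 1% of cells with most UMIs of the 8 genes. The highest over the lowest cluster, 6.39 in GOF and 5.39 in control, was 3.27 and 4.31 at clustering resolution 0.5. With genes of 1 UMI admitted, 32.3% of genes passed 1.5-fold, against 12.2%. Of the 8 genes, 6 kept the sign of their ratio under all 11 alternatives, and Jun and Junb did not. No paired analysis was possible because each genotype has 1 library, so no replicate could be left out. Depth limits Atf3 most.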
